A study of Mus musculus with 2 samples.

Results

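The genes that encode the proteins of the cytoplasmic ribosome were examined in RNA that co-purified with chromatin. Members were taken by gene symbol from the rows of both tables, with symbols that start with Rpl or Rps followed by the number or letter of a ribosomal protein. Pseudogene symbols and the S6 kinase genes were left out, as was 1 further small-subunit gene that the selection rule sets aside. This gave 83 genes of the 24117 symbols in the tables, 50 of the large subunit and 33 of the small subunit. Their reads lie on 295 of the 48876 rows, each row being 1 Ensembl transcript, and the rows of a symbol were summed.

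Each condition had 1 library, so the data are 2 libraries in all. Both came from derivatives of Ba/F3, a mouse hematopoietic line that grows with interleukin-3 and is labelled as strain C3H. The 3xFN-Tel-TAL cells stably expressed a TAL protein that binds telomeric repeats, fused to a 3xFLAG tag and a nuclear localization signal. The 3xFNLDD cells, which served as the negative control, stably expressed a 3xFLAG-tagged LexA protein. Both cell populations were fixed with formaldehyde, their chromatin was sonicated and precipitated with an antibody to FLAG, and 60 ng of the recovered RNA went into each library. RNA from before the precipitation was not analysed here, so a difference in expression between the 2 cell populations and a difference in co-purification cannot be told apart. In such bulk samples, fewer cells that express a gene and less of its RNA in each cell cannot be told apart either.

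The summed read count was 7206183 for 3xFNLDD and 9774844 for 3xFN-Tel-TAL. Most of these reads (84.8% in the control and 81.1% in 3xFN-Tel-TAL) belonged to 11 rows with more than 1% of a library each. All 8 genes taken as markers of Ba/F3 had reads in both libraries. Of 5 markers of other cell types, Alb and Ins2 were not listed, and Krt5, Myh6 and Gfap had at most 8 reads in any library.

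The ribosome of the cytoplasm is built from a large and a small subunit, each a core of ribosomal RNA dressed with many small proteins. The proteins are made in near-equal amounts from mRNAs that are short, abundant and stable in growing cells. Most of these mRNAs begin with a terminal oligopyrimidine (TOP) tract, through which the mTOR pathway adjusts their translation. Many of the genes carry small nucleolar RNAs in their introns, and mammalian genomes hold many processed copies of their mRNAs.

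The ribosomal protein genes were a small part of both libraries. They held 7284 reads in 3xFNLDD, which is 0.101% of the library (exact 95% Clopper-Pearson interval 0.0988% to 0.103%). In 3xFN-Tel-TAL they held 10763 reads, or 0.110% (0.108% to 0.112%). Counts were scaled to the library total as RPM, and ratios are given as log2 of the 3xFN-Tel-TAL value over the control value. For the summed reads this log2 ratio was 0.12 (95% interval 0.080 to 0.17). Intervals of ratios were derived from the exact binomial interval of the 3xFN-Tel-TAL fraction of the reads. Only counting error enters them, as reads copied by PCR and lacking molecular identifiers are not separate molecules. With 1 library per condition no difference has a replicate check, and no p-value is given.

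Ratios of single genes were compared for the 55 members with a sum of at least 100 reads over the libraries, 38 of the large and 17 of the small subunit. Their median log2 ratio was 0.085, whereas it was 0.41 for the 5933 symbols of the tables that met the same minimum. The difference of -0.33 corresponds to a ratio of 0.797 and does not depend on the library scaling. A log2 ratio below that of the median symbol was found for 42 of the 55 members, against 2966 of the 5933 symbols. A ratio of RPM above 1.4 was found for 9 members, compared with 42.8% of all symbols. The methods of the study describe this threshold for a ratio of read counts, which is not corrected for the larger 3xFN-Tel-TAL library. By the ratio of read counts, 31 members (78.6% of all symbols) were above 1.4 and 0 members (1.97% of all symbols) were below 1/1.4. A ratio below 1/1.4 was found for 2 members, compared with 5.83% of all symbols. The whole interval lay above a ratio of 1 for 12 members (50.6% of all symbols) and below 1 for 2 members (7.21% of all symbols). For the other 41 members, the difference between the libraries was within counting error.

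The sign of these ratios depends on the scaling. Scaling by the trimmed mean of M values (TMM) lowered every log2 ratio by the same amount, a shift of -0.33. With this scaling, the members' median was -0.24 and that of all symbols 0.085. The members above 1.4-fold then numbered 3 (19.6% of all symbols) and those below 1/1.4-fold numbered 10 (13% of all symbols). The interval lay above a ratio of 1 for 3 members (Rpl22, Rpl12 and Rps19, against 22.9% of all symbols) and below 1 for 18 members (16.2% of all symbols). Ratios and intervals given below are by library totals. For single genes, intervals that TMM scaling moves across a ratio of 1 are named beside them. Unless stated, sums over groups of genes, single rows and calls at 1.4-fold are given by library totals only. TMM scaling lowers their log2 ratios and intervals by the same shift, so some of these calls change as well.

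**Figure D1:**
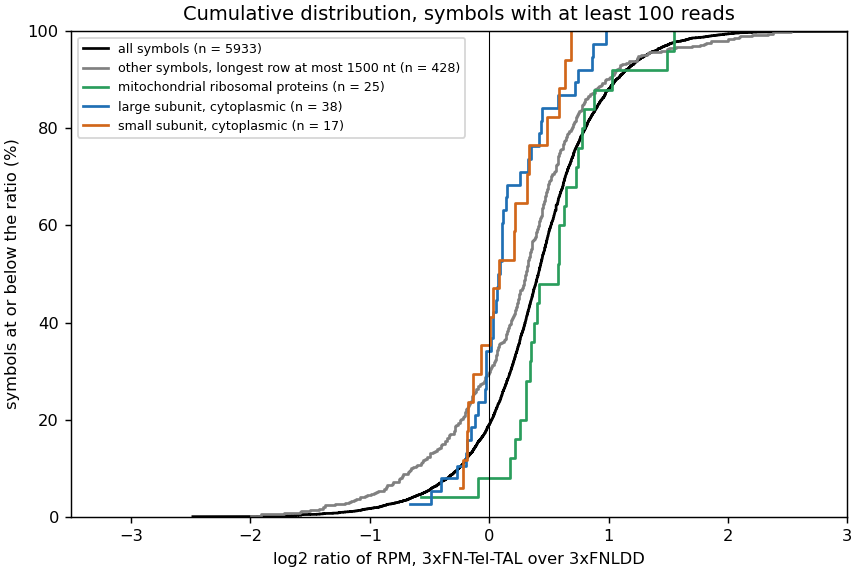
The horizontal axis is the log2 ratio of 3xFN-Tel-TAL to 3xFNLDD (RPM) and the vertical axis the percentage of symbols at or below it, for symbols with a sum of at least 100 reads. The curves of both ribosomal subunits lie to the left of the curve of all symbols over most of their range, with medians of 0.081 and 0.085 against 0.41, and the curve of the mitochondrial ribosomal proteins lies to its right at the median (0.58). The gray curve holds the 428 other symbols whose longest row has at most 1500 nt, with a median of 0.31.

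The most deeply read members kept nearly the same share in both libraries, apart from Rpsa. Rpsa, which encodes the small-subunit protein SA and is also known as a laminin receptor, had 457 reads in the control and 781 in 3xFN-Tel-TAL. This is 63.4 and 79.9 RPM, a log2 ratio of 0.33 (95% interval 0.16 to 0.50). Its 1 listed row is a 7-exon transcript on the forward strand of chromosome 9 of NCBIM37, from 120036884 to 120041487. By library totals Rpsa was higher in 3xFN-Tel-TAL by more than counting error, but with TMM scaling its log2 ratio was 0.0065 and the interval spanned a ratio of 1.

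Rplp0, the scaffold of the ribosomal stalk, had 402 reads in the control and 557 in 3xFN-Tel-TAL, which gave a log2 ratio of 0.031 (95% interval -0.16 to 0.22). Rpl10a, the protein of the L1 stalk of the large subunit, had 351 and 506 reads, which gave a log2 ratio of 0.088 (95% interval -0.11 to 0.29). Rpl13 had 241 and 339 reads, which gave a log2 ratio of 0.052 (95% interval -0.19 to 0.30). All 3 intervals span a ratio of 1 and end below the ratio of the median symbol. With TMM scaling, the log2 ratios of Rplp0 (-0.30), Rpl13 (-0.27) and Rpl10a (-0.24) had intervals wholly below a ratio of 1.

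Levels can be compared between genes only per length. When the reads of each row were divided by its annotated length, the highest sum was that of Rplp1, with 65.0 in the control and 71.7 in 3xFN-Tel-TAL, in RPKM (RPM divided by the row's length in kilobases). Rpl10a followed with 55.1 and 57.7 RPKM, and Rplp0 with 42.3 and 45.0 RPKM. These 3 members had the highest levels in both libraries among the 81 members whose rows all have an annotated length. The sums include rows of all types, and 73.4% of the Rpl10a reads were on retained-intron rows. The level of Rpl10a is therefore mostly not that of its coding row.

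**Figure D2:**
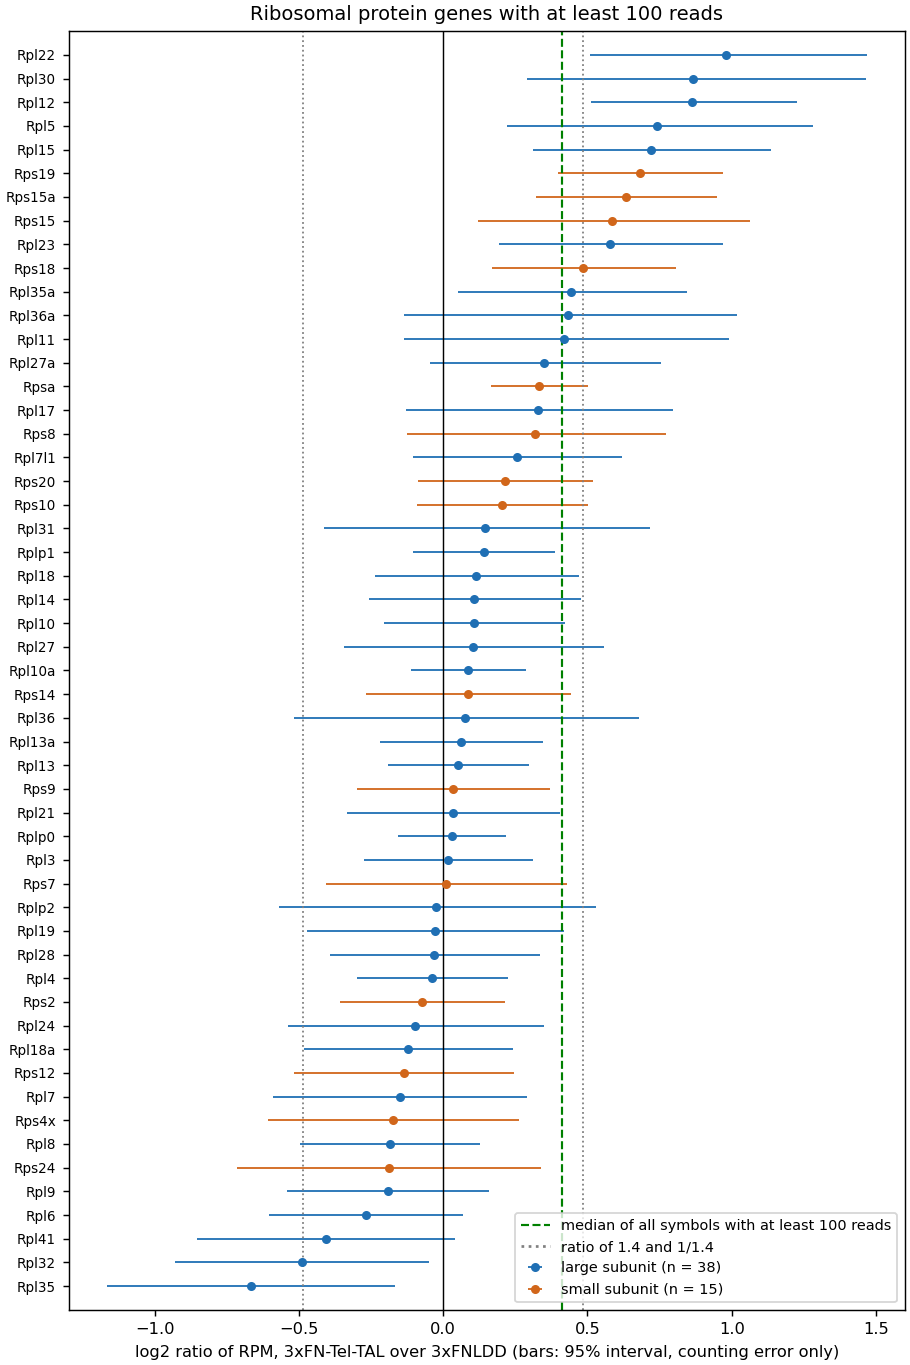
Points give the log2 ratio of 3xFN-Tel-TAL to 3xFNLDD (RPM) for 53 of the 55 ribosomal protein genes with at least 100 reads, ordered by ratio, and bars the 95% interval from counting error. Most intervals cross a ratio of 1, and 40 of the 53 points lie to the left of the dashed line, the median of all symbols.

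Large and small subunits were then compared, since their proteins are needed in equal number. The 50 large-subunit genes had 4746 reads in the control and 6826 in 3xFN-Tel-TAL, which gave a log2 ratio of 0.084 (95% interval 0.031 to 0.14). The 33 small-subunit genes had 2538 and 3937 reads, which gave a log2 ratio of 0.19 (95% interval 0.12 to 0.27). The large subunit was therefore lower by -0.11 on the log2 scale, with an exact conditional interval of -0.20 to -0.019. This difference does not depend on the library scaling. Without Rpsa, the member with the most reads, it was -0.076 (interval -0.17 to 0.020). Without Rplp0, the large-subunit member with the most reads, it was -0.10 (-0.20 to -0.012), and without both genes -0.072 (-0.17 to 0.027). The medians of the subunits were nearly equal, 0.081 for 38 large-subunit members and 0.085 for 17 small-subunit members. Above a ratio of 1.4 were 6 of the 38 large-subunit and 3 of the 17 small-subunit members, compared with 42.8% of all symbols. Both members below 1/1.4 (5.83% of all symbols) belonged to the large subunit. Without Rpsa and Rps19, the difference between the summed reads was -0.027 (-0.13 to 0.072). Among these variants, it exceeded counting error only where Rpsa was kept, but Rps19 was not left out alone. The difference thus rests on few genes.

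Among members with at least 100 reads, the highest ratios belonged to large-subunit genes. Rpl22, which binds the Epstein-Barr virus small RNA and has a close paralog in Rpl22l1, had 52 reads in the control and 139 in 3xFN-Tel-TAL, which gave a log2 ratio of 0.98 (95% interval 0.51 to 1.47). Rpl12, a protein at the base of the stalk, had 94 and 232 reads, which gave a log2 ratio of 0.86 (95% interval 0.51 to 1.23). Rpl22 and Rpl12 were the only members of this depth whose lower bound was above 1.4-fold by library totals. Rpl30 (36 and 89 reads) was at 0.87 (95% interval 0.29 to 1.47) and Rpl15 (73 and 163 reads) at 0.72 (95% interval 0.31 to 1.14). The intervals of these 4 genes overlap, so their order is not resolved. With TMM scaling, the intervals of Rpl30 and Rpl15 spanned a ratio of 1, and those of Rpl22 and Rpl12 stayed above it.

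Part of the reads behind these ratios lay on rows that are not annotated as coding. For Rpl12, 97.9% of the reads were on rows annotated as processed transcripts. Among them, ENSMUST00000102811 (729 nt) has 7 exons, the same number as the coding row of Rpl12. It had 28 and 60 reads, at 0.66 (95% interval -0.010 to 1.36). The processed transcript ENSMUST00000133842 of Rpl12 had 17 and 51 reads, which gave a log2 ratio of 1.15 (95% interval 0.33 to 2.03). For Rpl22, the processed transcript ENSMUST00000150485 had 3 and 27 reads (2.73, 95% interval 1.03 to 5.09). The short coding row of Rpl22 (474 nt) had 17 and 27 reads, at 0.23, with an interval that spans a ratio of 1, and the long coding row (2051 nt) had 29 and 73 reads, with 0.89 (95% interval 0.25 to 1.57). Rpl15 had no reads on rows of these types, and its coding row of 897 nt had 56 and 120 reads.

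Among small-subunit genes with at least 100 reads, the highest log2 ratio was that of Rps19, a protein needed for the maturation of 18S ribosomal RNA. Rps19 had 149 reads in the control and 324 in 3xFN-Tel-TAL, which gave a log2 ratio of 0.68 (95% interval 0.40 to 0.97). Rps15a (126 and 265 reads) followed at 0.63 (95% interval 0.32 to 0.95) and Rps15 (58 and 118 reads) at 0.58 (95% interval 0.12 to 1.06). The ratios of these genes were above 1 by more than counting error, and their intervals all contain the ratio of the median symbol. With TMM scaling, only Rps19 of these 3 genes had an interval above a ratio of 1, at 0.35 (95% interval 0.070 to 0.64).

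Among members with at least 100 reads, the lowest ratios were also found in the large subunit. Rpl35, a protein near the exit of the nascent chain tunnel, had 76 reads in the control and 65 in 3xFN-Tel-TAL, which gave a log2 ratio of -0.67 (95% interval -1.17 to -0.17). Rpl32 had 90 and 87 reads, which gave a log2 ratio of -0.49 (95% interval -0.93 to -0.047). Of the members with at least 100 reads, only these 2 were below 1/1.4-fold by library totals. Rpl41, the smallest protein of the ribosome, was at -0.41 (95% interval -0.85 to 0.042) and Rpl6 at -0.27 (95% interval -0.60 to 0.069). The intervals of Rpl41 and Rpl6 span a ratio of 1 by library totals, and with TMM scaling they lay below it, at -0.73 and -0.59.

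Of the stalk proteins, which recruit the elongation factors, Rplp0 is described above. Rplp1 had 232 reads in the control and 347 in 3xFN-Tel-TAL, which gave a log2 ratio of 0.14 (95% interval -0.10 to 0.39). Rplp2 had 51 and 68 reads, which gave a log2 ratio of -0.025 (95% interval -0.57 to 0.53). By library totals, none of the 3 stalk genes left a ratio of 1 by more than counting error, whereas with TMM scaling Rplp0 was below it, as given above.

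Rpl5 and Rpl11 join 5S ribosomal RNA before it enters the large subunit, and the same particle binds Mdm2 when ribosome assembly is disturbed. Rpl5 had 45 reads in the control and 102 in 3xFN-Tel-TAL, which gave a log2 ratio of 0.74 (95% interval 0.22 to 1.28). Rpl11 had 43 and 78 reads, which gave a log2 ratio of 0.42 (95% interval -0.14 to 0.99). The interval of Rpl5 spanned a ratio of 1 once TMM scaling was used. The coding rows of Rpl11 were at -0.37 (19 and 20 reads) and 0.56 (6 and 12 reads), both with intervals that span a ratio of 1, and its processed transcript ENSMUST00000142440 (8 and 28 reads) was at 1.37 (95% interval 0.20 to 2.71). This row had the highest ratio of the Rpl11 rows with at least 20 reads.

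Mutations of some ribosomal protein genes cause Diamond-Blackfan anemia in humans, an inherited failure of red cell formation, and 9 such genes were examined. Of these, 8 had at least 100 reads, with a median log2 ratio of 0.31. Above 1.4-fold were 2 of the 8 (Rps19 and Rpl5), compared with 42.8% of all symbols. With TMM scaling, Rps19 and Rpl5 were at 0.35 and 0.41, both below 1.4-fold. Rpl35a (84 and 155 reads) was at 0.44 (95% interval 0.052 to 0.84, which spans a ratio of 1 with TMM scaling) and Rps10 (158 and 247 reads) at 0.20 (95% interval -0.089 to 0.50). Rps7 (85 and 116 reads) and Rps24 (58 and 69 reads) were at 0.0088 and -0.19, with intervals that span a ratio of 1. Rps26 had 26 and 45 reads, too few for the comparison.

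Of the X-linked members, Rpl10 had 145 and 212 reads, which gave a log2 ratio of 0.11 (95% interval -0.20 to 0.42), and Rps4x had 84 and 101 reads, with -0.17 (95% interval -0.61 to 0.26). Rpl36a had 41 and 75 reads, with 0.43 (95% interval -0.14 to 1.02), and Rpl39 had 41 and 55 reads. Rps6, which is phosphorylated by the S6 kinases, had 20 reads in the control and 35 in 3xFN-Tel-TAL. Rps27a, which is made as a fusion to ubiquitin, had 33 reads in each library, which is a log2 ratio of -0.44 (95% interval -1.18 to 0.30). None of these genes was distinguishable from a ratio of 1 by library totals, but with TMM scaling Rps4x (-0.50) and Rps27a (-0.77) were below it.

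Some paralogs, though not all, replace a ribosomal protein in certain tissues. Of the 5 paralogs examined, only Rpl7l1 reached 100 reads. Rpl7l1, a relative of Rpl7, had 105 and 170 reads, which gave a log2 ratio of 0.26 (95% interval -0.10 to 0.62). Rpl7 itself had 81 and 99 reads, with -0.15 (95% interval -0.59 to 0.29), or -0.48 by TMM scaling with an interval below a ratio of 1. Rpl22l1 had 14 and 10 reads, with -0.93 (95% interval -2.26 to 0.35), whereas its partner Rpl22 was at 0.98, and the 2 intervals do not overlap. Rps27l had 8 and 23 reads, with 1.08 (95% interval -0.13 to 2.45). Rpl3l had 1 read and Rpl10l had 2 reads in both libraries together, whereas Rpl3 had 169 and 232 reads, a level at which its log2 ratio was 0.017 by library totals and, by more than counting error, -0.31 by TMM. Such counts are below the floor of 3 reads (0.416 RPM in the control, 0.307 RPM in 3xFN-Tel-TAL), so no ratio is given. No row carried the symbols Rps27, Rps4l or Rpl39l, so any of these genes listed under another symbol would be missed.

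The rows of a gene differ in whether introns have been removed. The annotation (GENCODE M1 on NCBIM37) holds 289 of the 295 rows and names 144 of them protein-coding, 87 retained intron, 51 processed transcript and 7 targets of nonsense-mediated decay. A retained-intron row keeps intron sequence that the coding rows of the same gene have lost, as unspliced or incompletely spliced RNA would. The following windows show this difference at a splice donor for the 3 genes whose retained-intron and coding rows differed by more than counting error, as described below. Each has the last 15 bases of an exon in lower case, followed in capitals by either the first 15 bases of the intron (retained) or the first 15 bases of the next exon (spliced).
Rps19, intron 2, retained: agccttcctcaaaaaGTAAGTGTTTGTTGG
Rps19, intron 2, spliced: agccttcctcaaaaaGTCCGGGAAGCTGAA
Rps10, intron 4, retained: ggagcgctgtgccccGTGAGTATCTCCTCT
Rps10, intron 4, spliced: ggagcgctgtgccccAGAGGCGGCTTTGGT
Rplp2, intron 2, retained: gatcggctcaacaagGTAGCATGCTGCTTG
Rplp2, intron 2, spliced: gatcggctcaacaagGTCATCAGTGAGCTG
Introns are numbered along the coding row with the most reads that has such a junction. The retained windows lie at chr7:25670211-25670240 (forward strand) for Rps19, chr17:27769209-27769238 (reverse strand) for Rps10 and chr7:148633916-148633945 (forward strand) for Rplp2, all on NCBIM37, and each begins in a coding exon. All 3 introns begin with GT and end with AG. The introns have 245, 1772 and 694 bases, in the same order. The retained-intron row of Rps19 holds the whole intron, and those of Rps10 and Rplp2 hold only part of it.

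Summed over the members, coding rows had 5789 reads in the control and 8157 in 3xFN-Tel-TAL, which gave a log2 ratio of 0.055 (95% interval 0.0061 to 0.10). Retained-intron rows had 971 and 1712 reads, which gave a log2 ratio of 0.38 (95% interval 0.26 to 0.49). Processed transcripts, which have no annotated reading frame, had 333 and 677 reads, which gave a log2 ratio of 0.58 (95% interval 0.39 to 0.78). The intervals of both types lie above that of the coding rows. However, rows of a gene can share exons, and the sources used here do not give how reads were assigned among such rows. A read counted on a retained-intron row may thus lie in a shared exon. The ratios by type of row are therefore descriptions, and their intervals treat the reads of different rows as separate.

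Relative to coding rows, retained-intron rows were higher by 0.32 on the log2 scale (interval 0.20 to 0.45) and processed transcripts by 0.53 (interval 0.33 to 0.73). These differences do not depend on the library scaling. Over the other genes with a protein-coding type, the same differences were 0.11 and 0.095, with log2 ratios of 0.19 for coding rows, 0.30 for retained-intron rows and 0.28 for processed transcripts. The retained-intron rows of the members were therefore near those of other genes, and their coding rows were lower. Of the members' reads, retained-intron rows held 13.3% in the control and 15.9% in 3xFN-Tel-TAL, compared with 9.13% and 9.75% in other genes. The sum for processed transcripts includes Rpl12, which had 94 and 232 reads, 97.9% of them on such rows. A value without Rpl12 was not computed, so the difference of 0.53 may rest in part on this gene.

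In both subunits the order was coding rows below retained-intron rows. Large-subunit coding rows were at 0.0096 (95% interval -0.052 to 0.071), retained-intron rows at 0.32 (0.18 to 0.46) and processed transcripts at 0.77 (0.51 to 1.02). Small-subunit coding rows were at 0.13 (0.051 to 0.21), retained-intron rows at 0.50 (0.30 to 0.71) and processed transcripts at 0.31 (0.015 to 0.62). The value for processed transcripts of the large subunit includes those of Rpl12 and Rpl22.

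**Figure D3:**
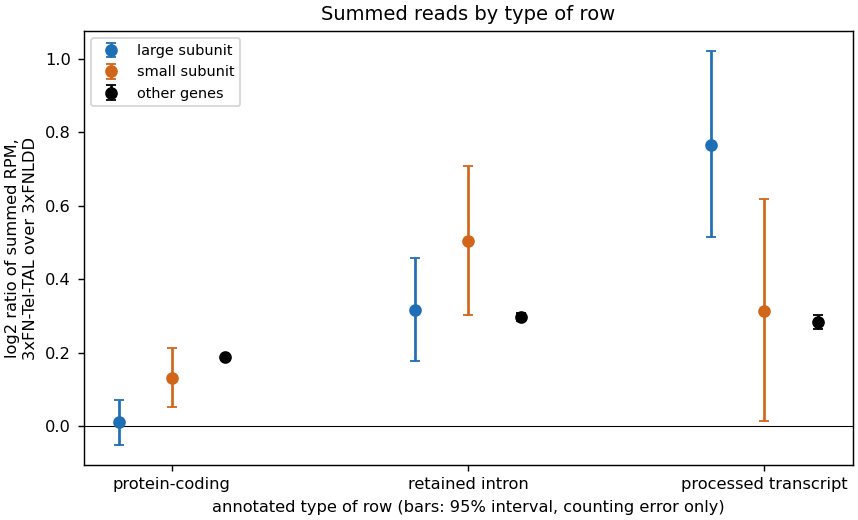
Points give the log2 ratio of summed RPM in 3xFN-Tel-TAL to that in 3xFNLDD for rows annotated as protein-coding, retained intron or processed transcript, and bars the 95% interval from counting error. Coding rows of the large subunit (0.0096) and small subunit (0.13) lie below those of other genes (0.19), and retained-intron rows of the subunits (0.32 and 0.50) lie at or above those of other genes (0.30).

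Both types of row were compared within genes for the 25 members with at least 20 reads on coding rows and at least 20 reads on retained-intron rows. The retained-intron rows had the higher log2 ratio in 17 of the 25 members, compared with 52.4% of all 1486 genes that met the same minimum. The median difference within a gene was 0.47 for the members and 0.034 for the 1461 other genes. The counting interval of the difference lay above 0 for 3 of the 25 members, against 11.5% of all 1486 genes, and below 0 for 0 members, against 8.21%. The 3 members are thus about as many as the share over all genes gives. These intervals also treat the reads of both types of row as separate, which is not known where the rows share exons. With at least 50 reads of each type, retained-intron rows were higher in 10 of 14 members and in 339 of 676 other genes.

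The 3 members were Rps19, Rps10 and Rplp2. In Rps19, coding rows had 82 and 135 reads, which gave a log2 ratio of 0.28 (95% interval -0.13 to 0.69). The Rps19 retained-intron row ENSMUST00000138662, which spans 2657 nt in 2 exons, had 59 reads in the control and 182 in 3xFN-Tel-TAL, which gave a log2 ratio of 1.19 (95% interval 0.75 to 1.63). The 2 intervals do not overlap, and this row held the most reads of the gene.

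In Rps10, a protein of the small-subunit head, coding rows had 100 and 112 reads, with -0.28 (95% interval -0.68 to 0.13), and retained-intron rows had 20 and 54 reads, with 0.99 (95% interval 0.23 to 1.81). In Rplp2, coding rows had 34 and 30 reads, with -0.62 (95% interval -1.38 to 0.13), and retained-intron rows had 16 and 35 reads, with 0.69 (95% interval -0.20 to 1.64). For both genes the sum over rows (0.20 and -0.025) joins rows with different ratios, with intervals of the difference of 0.39 to 2.18 for Rps10 and 0.11 to 2.53 for Rplp2. The row of Rplp2 whose window is printed above, ENSMUST00000140099, had 14 and 21 reads, at 0.15 (95% interval -0.90 to 1.23). The contrast in Rplp2 thus rests on a second retained-intron row, ENSMUST00000137307, with 2 and 14 reads (2.37, 95% interval 0.25 to 5.55). The row of Rps10 with the printed window, ENSMUST00000150763, had 11 and 40 reads, at 1.42 (95% interval 0.43 to 2.53).

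Not all members had this order. In Rpl27a, coding rows (9 and 29 reads) were at 1.25 and retained-intron rows (69 and 110 reads) at 0.23, with an interval of the difference from -2.36 to 0.21. Rpl10a had 250 and 379 reads on retained-intron rows, with 0.16 (95% interval -0.074 to 0.40), and 96 and 125 reads on coding rows, with -0.059 (95% interval -0.45 to 0.34). Within Rpl10a the rows were not distinguishable, since the interval of the difference was -0.25 to 0.68. Without Rps19 and Rpl10a, the log2 ratio of the members' retained-intron rows was 0.36 (95% interval 0.22 to 0.50).

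**Figure D4:**
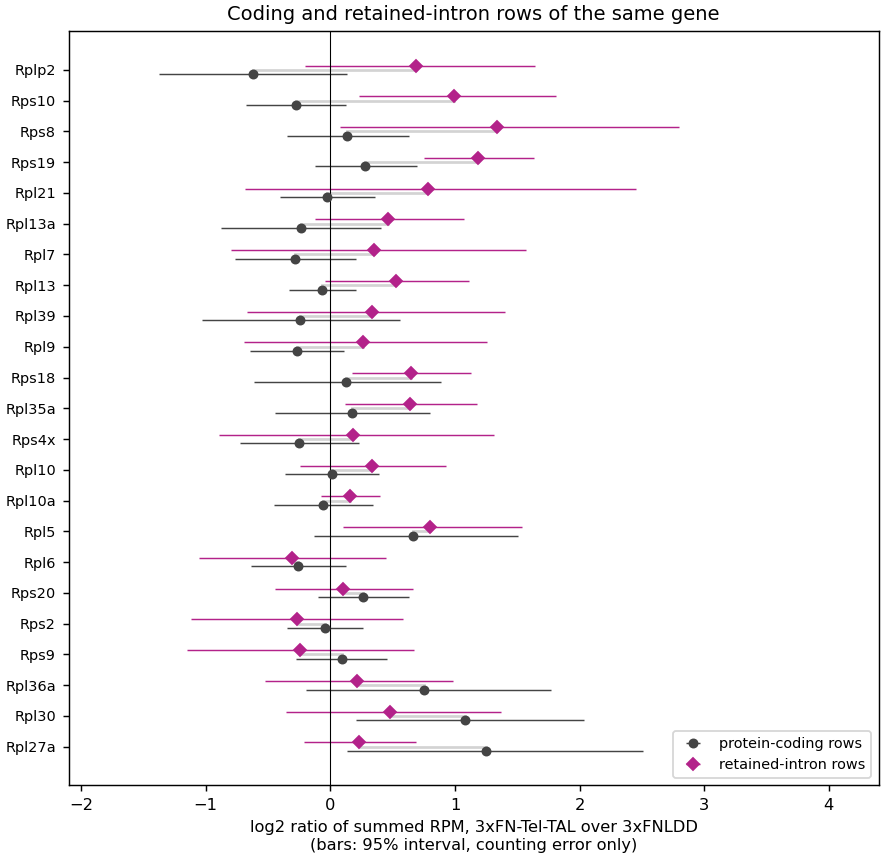
Circles give the log2 ratio of summed RPM in 3xFN-Tel-TAL to that in 3xFNLDD for the coding rows and diamonds for the retained-intron rows of the same gene, with 95% intervals from counting error, ordered by the difference. The plot shows 23 of the 25 genes, and diamonds lie to the right of circles in 16 of them, with the widest gaps for Rplp2 (1.31) and Rps10 (1.27).

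Small nucleolar RNAs (snoRNAs) lie on the same strand within the span of the rows of 28 members according to the annotation. The median log2 ratio was 0.063 for the 21 of these with at least 100 reads and 0.088 for the 33 members without a snoRNA. Exons of 12 retained-intron rows hold a whole snoRNA gene. These rows had 144 and 287 reads, which gave a log2 ratio of 0.56 (95% interval 0.26 to 0.85), and the other 75 retained-intron rows had 827 and 1425 reads, which gave a log2 ratio of 0.35 (95% interval 0.22 to 0.47). The higher ratio of retained-intron rows than of coding rows was therefore present without the rows that hold a snoRNA.

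Ratios also differed with the length of the longest row, though not steadily. The median log2 ratio was 0.033 for the 36 members whose longest row has at most 1500 nt and 0.29 for the 18 members with a longer row. Among all symbols, the medians were 0.29 for the 464 with a longest row of at most 1500 nt and 0.43 for the 5237 with a longer row. Without the members, the 428 short symbols had a median of 0.31. In finer bins, the median of all symbols was 0.32 up to 600 nt, 0.13 from 601 to 1000 nt and 0.32 from 1001 to 1500 nt. The bin from 601 to 1000 nt held 18 of the members, with a median of -0.0080. The part of length in the members' ratios was not tested.

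Genes related to the members by function were placed beside them. The mitochondrial ribosome has its own nuclear-encoded proteins. Their names were carried by 77 symbols, including the pseudogene entry Mrps36-ps1 (3 and 0 reads). The 25 symbols with at least 100 reads had a median log2 ratio of 0.58. Of these, 13 were above 1.4-fold (42.8% of all symbols) and 1, Mrpl48, was below 1/1.4-fold (5.83% of all symbols). The highest were Mrps25 (30 and 119 reads), at 1.55 (95% interval 0.96 to 2.18), and Mrps5 (27 and 103 reads), at 1.49 (95% interval 0.87 to 2.16). The median of the mitochondrial ribosomal proteins was thus above that of all symbols, although 11 of the 25 genes were below it.

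Other mRNAs known for a TOP tract were listed as well, of which 18 had rows and 16 had at least 100 reads. Their median log2 ratio was -0.071, and 12 of the 16 were below the median symbol. Eef1a1, the factor that brings tRNA to the ribosome, had 645 reads in the control and 758 in 3xFN-Tel-TAL, with -0.21 (95% interval -0.36 to -0.053). Eef2, the translocation factor, had 538 and 635 reads, with -0.20 (95% interval -0.37 to -0.032). Eef1d (68 and 201 reads) was at 1.12 (95% interval 0.72 to 1.54) and Pabpc1, the poly(A)-binding protein (431 and 924 reads), at 0.66 (95% interval 0.49 to 0.83). The list was therefore mixed, with 4 of its 16 genes above 1.4-fold (42.8% of all symbols) and 1 below 1/1.4-fold (5.83% of all symbols).

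Pseudogene entries of ribosomal proteins, which are processed copies of the mRNAs, numbered 127 symbols with 749 and 1058 reads, which gave a log2 ratio of 0.058 (95% interval -0.078 to 0.20). Their ratio was close to that of the members' coding rows (0.055). The sources used here do not give how reads that match a gene and its copies were assigned, so the count of each member is uncertain to that extent. The same holds for Rps3a2, Rps3a3, Rps12l1, Rps4y2 and Rpl10l, whose listed row has 1 exon. For Rpl24, 54 and 76 of its 78 and 99 reads were on a row of 11 exons, from 55973917 to 56009026 on chromosome 16 of NCBIM37, which does not overlap the Rpl24 row from 55966388 to 55971548. The value of Rpl24 (-0.096) therefore rests mainly on that row.

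The remaining 28 members, 12 of the large and 16 of the small subunit, had fewer than 100 reads in both libraries together, and 5 of them had fewer than 20. None was without reads. Among these, Rps23 had 15 reads in the control and 47 in 3xFN-Tel-TAL, which gave a log2 ratio of 1.21 (95% interval 0.34 to 2.15). Rpl37a had 52 and 33 reads, with -1.10 (95% interval -1.77 to -0.44), and Rpl38 had 17 and 6 reads, with -1.94 (95% interval -3.57 to -0.53). Rps21 (44 and 32 reads) was at -0.90 (95% interval -1.60 to -0.21) and Rpl23a (40 and 32 reads) at -0.76 (95% interval -1.48 to -0.055). These 5 genes were chosen after their values were seen, because their intervals do not include a ratio of 1. The median over the 78 members with at least 20 reads was 0.034.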

How the data were processed

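RNA co-purified by enChIP was sequenced in 1 library per condition, and samples were grouped by their titles. The authors deposited read counts per Ensembl transcript, without normalization, and RPM, which equals the count scaled to the summed counts of the library. The submitters' processing notes name cutadapt and the builds GRCm38 and mm10, with no role or version. GENCODE M1 is therefore on an older build than the counts. The aligner, the annotation release, strand and how multiply matching reads were counted are not given in the sources used here.

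Counts were summed per symbol. Log2 ratios and exact intervals were computed without a pseudocount in Python 3.11.15 (scipy 1.17.1, pandas 2.3.3). The difference between groups of reads has the exact conditional interval of an odds ratio. TMM factors came from edgeR 4.0.16 on symbols with at least 10 reads. Transcript types, lengths, positions and sequences came from GENCODE M1 and NCBIM37, matched by transcript identifier, since the deposited files hold no coordinates. The computation was tested on simulated data.

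Named genes are the 5 members with the most reads, the 5 highest and 5 lowest log2 ratios among members with at least 100 reads, and all genes of the role lists, 37 in all, of which 2 are not reported here. Other genes are named to describe a class or a transcript type, after their values were seen. The members and lists were chosen with earlier results of these data known. Alternatives were other scalings, minimum counts, pseudocounts, thresholds and choices of rows.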

Additional observations from a re-analysis of the deposited data

How the results depend on the processing

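No paired analysis was possible because each condition has a lone library, which also means that none could be left out in turn. With totals without the rows above 1% of a library, or with TMM scaling, the summed log2 ratio of the members (0.12) became -0.19 or -0.20, the median (0.085) -0.23 or -0.24, the members above 1.4-fold (9) 3 or 3 and those below 1/1.4-fold (2) 10 or 10. A minimum of 20 reads gave a median of 0.034 and 9 members below 1/1.4-fold, and no minimum, with 0.5 added to both counts, gave 0.032 and 11. A minimum of 200 reads gave 5 above and 0 below, and a difference of -0.13 between the medians of the large and small subunits (-0.0035 at 100 reads). A threshold of 2 gave 0 above and 0 below, the 95% bound in place of the ratio gave 2 and 0, and a pseudocount of 1 RPM left 1 below. With the row of each gene that has the most reads, the summed log2 ratio was 0.041, the median -0.0080 and 4 members were below 1/1.4-fold. With coding rows only, the summed log2 ratio was 0.055, the median 0.0095 and 5 members were above 1.4-fold. The median was 0.034 without the 18 members with the largest shares of retained-intron or processed-transcript reads, an alternative chosen after seeing the data. Read counts without scaling gave a summed log2 ratio of 0.56, a median of 0.52, 31 members above 1.4-fold and 0 below. This alternative and those that left out Rpsa, Rplp0, Rps19 or Rpl10a, rows that hold a snoRNA, or rows under 50 reads were also chosen then. Leaving out the paralogs moved none of these 6 results beyond its interval or 1.5 times its count. Beyond what the fewer genes or other scaling fix by construction, the cause was not tested. The shares of all symbols past 1.4-fold are given above only for library totals, TMM scaling and read counts without scaling. Counts of members under the other settings have no such share beside them.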
